A study of Homo sapiens with 12 samples.

Results

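The 51 genes described here encode the proteins that mark replication origins, load and start the replicative helicase, and copy DNA at the moving fork. They were chosen by gene symbol, in 12 subcomplexes, from the 61906 genes counted in each table, by a rule that uses no measured value. All 51 were found in both tables and passed the filter on low counts. The cells were MOLM-14, a human line of acute myeloid leukemia with a KMT2A fusion and a mutated FLT3 receptor. In the first experiment cells received lentivirus with a control shRNA (shControl) or an shRNA against the RNA helicase gene DDX5 (shDDX5) and were harvested at 96 hours. The second experiment exposed cells, for which the labels name no infection, to 0.1% DMSO or 100 nM RX-5902 for 6 hours. RX-5902 is a small molecule directed at phosphorylated DDX5. Each of the 4 groups had 3 RNA-seq libraries, called biological replicates in the labels. Only 1 shRNA against DDX5 was used, with no rescue, so that a loss of DDX5 and other effects of that shRNA cannot be told apart.

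Replication is prepared before S phase begins. The origin recognition complex (ORC), CDC6 and CDT1 load MCM2-7 rings onto DNA, a step called licensing that geminin blocks by binding CDT1. In S phase the DBF4-dependent kinase CDC7 and cyclin-dependent kinases recruit CDC45 and the GINS proteins, which turn the ring into the active CMG helicase (CDC45, MCM2-7 and GINS). Polymerases alpha, delta and epsilon then copy the strands with the sliding clamp PCNA, and histone chaperones repack the new DNA. Many of these genes are transcribed at the passage from G1 to S phase under E2F factors and are silenced in resting cells by the DREAM and retinoblastoma-family repressors.

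Libraries held 17603589 to 19674098 counts in the knockdown experiment and 20264250 to 20367575 in the compound experiment. DDX5 stood at 754, 717 and 728 CPM (counts scaled to library size, by TMM within each experiment) under shControl, and at 159, 163 and 161 CPM under shDDX5 (log2 fold change -2.19, SE 0.08, edgeR adjusted p = 3.44e-06). With RX-5902 it went from 853, 867 and 862 to 1106, 1065 and 1022 CPM (log2 fold change 0.31, SE 0.04, edgeR adjusted p = 1.47e-08). Of the myeloid markers PTPRC, CD33, SPI1, FLT3 and CEBPA were present in every group, and CD68 was near 0 in all. The summed level of the 12 myeloid markers was 4532 to 4886 CPM in shControl and 13665 to 15013 CPM in shDDX5 libraries, with LYZ as its main part in both, and 1740 to 1794 CPM over the 6 libraries of the compound experiment. Single markers went both ways: of 11 tested, 6 rose in the knockdown (LYZ 1.92 and ITGAM 1.27 most, on the log2 scale) and 4 fell (AIF1 -1.77, KMT2A -1.18, PTPRC -0.86 and FLT3 -0.51), and with RX-5902 5 rose (ITGAM 1.26 and PTPRC 0.92 most) and 6 fell (MPO -0.76 and LYZ -0.54 most). The 7 markers of T and NK cells, mostly NKG7, summed to 69.9 to 75.2 CPM in shControl, 109 to 162 CPM in shDDX5, 15.3 to 16.4 CPM in DMSO and 23.5 to 25.9 CPM in RX-5902 libraries, with CD3G at 0 in all. The list of 8 packaging-cell and epithelial markers had a sum of 9.94 to 11.2, 6.89 to 8.74, 4.21 to 4.90 and 18.0 to 20.4 CPM in the same order of groups. L1CAM made most of that sum in shControl, DMSO and RX-5902 libraries and changed by -2.11 and 2.27, KRT8 rose in the knockdown (0.85), and NEFL and NEFM were at 0. The 6 fibroblast markers summed to 1.53 to 2.07, 4.42 to 7.18, 0.404 to 0.601 and 0.957 to 1.40 CPM, where COL1A1 rose in both experiments (3.03 and 1.93) and COL3A1, DCN and LUM were at 0. B-cell markers summed to at most 2.49 CPM, with MS4A1 at 0, and erythroid markers to at most 0.148 CPM, with HBA1, HBA2, HBB and HBG1 at 0. The part of these marker changes in the results below was not tested. LYZ stood at 3406 ± 192 CPM in shControl and 377 ± 10.4 CPM in DMSO cells (mean ± SD, n = 3), so the control groups differ, and infection, culture time and table cannot be told apart as sources. shDDX5 replicate 1 stood apart, with a chi-square per gene of 46.3 and 46.4 against its replicates and 1.68 to 5.93 for every other pair within a group. In it, longer members were read lower and shorter ones higher than in replicates 2 and 3 (Spearman rho -0.55 with exon length over the 51 genes of these libraries, a description), from -0.69 on the log2 scale for POLE and MCM2 to 0.66 for GINS2, with a median of 0.08.

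After DDX5 knockdown nearly the whole replication apparatus was expressed at a lower level. Of the 51 genes 48 were lower in shDDX5 cells, 0 were higher, and 3 (ORC4, ORC5 and RFC2) were not called at an edgeR adjusted p under 0.05. Of the 14463 genes tested, 56.7% were called, 28.3% lower and 28.4% higher. The members' median log2 fold change was -1.62, beside -0.00 for all genes tested, and 40 of 51 were lower by at least 2-fold, beside 10.3% of the genes tested. The 51 genes together took 4338, 4342 and 4407 CPM in shControl and 1455, 1451 and 1463 CPM in shDDX5 libraries, a 3.00-fold lower sum. In 48 of 51 genes the values of the 2 groups did not overlap, with the shDDX5 libraries below, beside 34.0% of the genes tested. Without shDDX5 replicate 1 the count was 49 lower and 0 higher (median -1.65), beside 5326 lower and 5319 higher of 14916 genes tested. RNA from the whole culture cannot tell apart fewer cycling cells and less of these RNAs per cell.

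RX-5902 for 6 hours gave smaller and mixed changes. With the compound 34 of 51 genes were lower, 5 were higher (CDT1, CDC7, POLD1, RFC4 and LIG1) and 12 were not called. The background was high here too, since 64.1% of the 13941 genes tested were called, 31.9% lower and 32.2% higher. The median log2 fold change of the members was -0.21, beside 0.01 for all genes tested, and only GINS2 and TIPIN were lower by at least 2-fold, beside 3.57% of the genes tested. The summed level went from 6187, 6225 and 6116 CPM in DMSO to 5148, 5141 and 5138 CPM in RX-5902 libraries. The treated libraries lay below the controls without overlap in 35 genes and above them in 6, beside 33.5% and 34.0% of the genes tested. Tested against a fold of at least 1.2, 17 members were called lower and 1, CDT1, higher, beside 2617 lower and 2573 higher of the 13941 genes tested. When all 12 libraries were fitted together, 25 members were lower and 4 higher, beside 3049 lower and 3767 higher of 15386 genes tested. ORC2, GMNN, GINS4, POLA1, POLA2, POLD1, POLD3, RFC2, RPA2 and CHAF1A lost their RX-5902 call there (edgeR adjusted p = 0.0712 for POLA2 to 0.306 for GINS4).

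**Figure D1:**
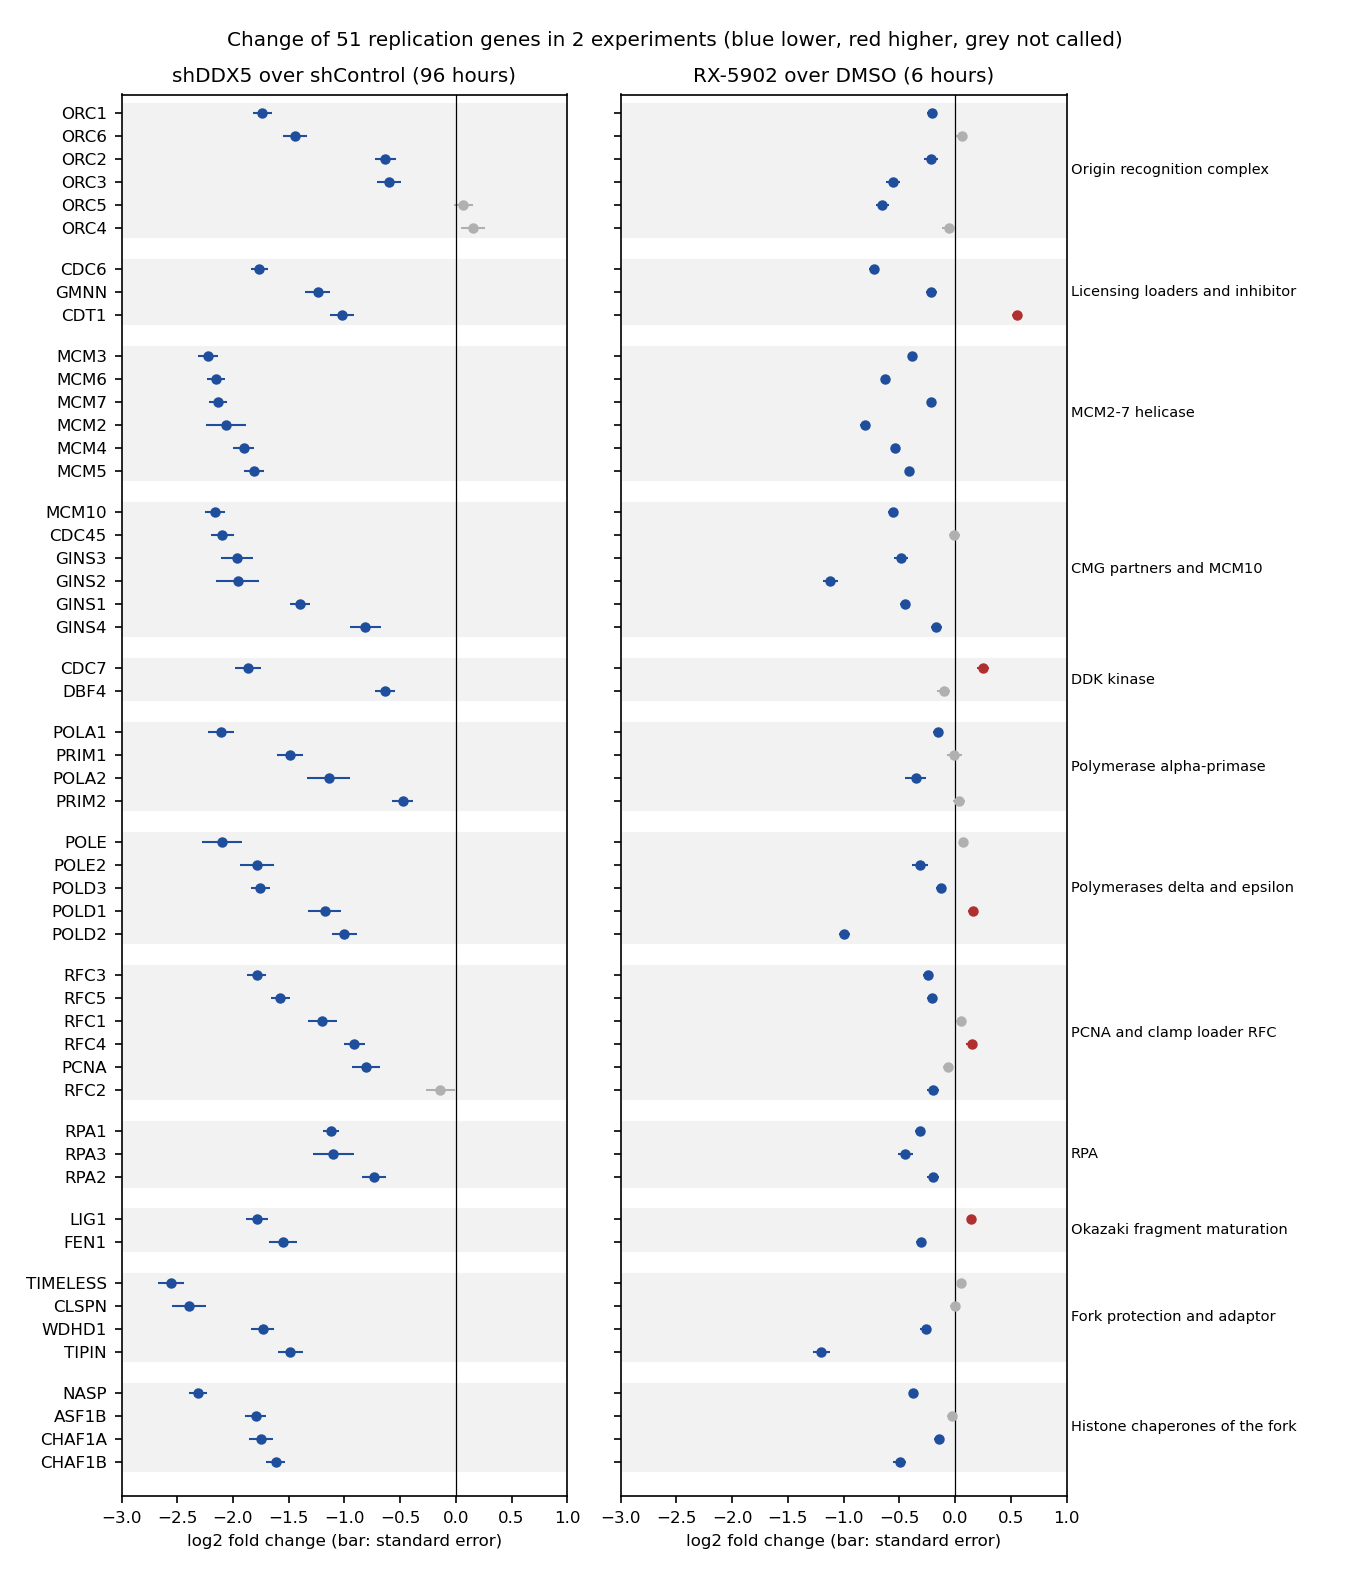
Log2 fold change (points) with its standard error (bars) of each of the 51 genes, by subcomplex, for shDDX5 over shControl on the left and RX-5902 over DMSO on the right. Blue points were called lower, red points higher and grey points were not called. On the left 48 points are blue and none is red, and on the right 34 are blue and 5 red, most of them close to 0.

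In the knockdown the origin recognition complex had the widest range of log2 fold changes of the 12 subcomplexes, from -1.74 to 0.15. ORC1, the subunit whose level follows the cell cycle, and ORC6 fell most in the knockdown, ORC2 and ORC3 fell less, and ORC4 and ORC5 were not called. ORC1 (chr1:52372829-52404423, minus strand) stood at 51.7, 54.6 and 52.1 CPM in shControl and at 14.8, 16.6 and 16.1 CPM in shDDX5 libraries, so all knockdown libraries lay far below the controls (log2 fold change -1.74, SE 0.09, edgeR adjusted p = 4.15e-06). ORC5, a core subunit with an ATPase fold (chr7:104126341-104208047, minus strand), read 22.8, 24.8 and 24.5 CPM in shControl and 26.8, 24.5 and 24.1 CPM in shDDX5 libraries, and the groups overlapped (log2 fold change 0.07, SE 0.09, edgeR adjusted p = 0.537). ORC4, another ATPase-fold subunit, overlapped as well, at 19.3, 17.4 and 16.1 and 21.0, 17.6 and 20.0 CPM (log2 fold change 0.15, SE 0.11, edgeR adjusted p = 0.261). ORC6, a smaller subunit that is bound less tightly, fell from 34.5, 30.9 and 31.7 to 13.2, 10.6 and 11.9 CPM (log2 fold change -1.44, SE 0.10, edgeR adjusted p = 1.74e-05). The log2 fold changes of ORC2 and ORC3 were -0.63 and -0.60.

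With RX-5902 the order within ORC was a different one. ORC5 went from 32.8, 32.2 and 33.5 CPM in DMSO to 20.8, 20.5 and 21.4 CPM in RX-5902 libraries, with every treated library below every control (log2 fold change -0.65, SE 0.06, edgeR adjusted p = 2.63e-11). ORC3 fell from 40.5, 39.6 and 36.6 to 28.3, 24.9 and 26.2 CPM (-0.56 on the log2 scale). ORC1 was lower by a small step, from 80.1, 81.1 and 78.4 to 69.8, 68.3 and 69.3 CPM (log2 fold change -0.21, SE 0.04, edgeR adjusted p = 9.96e-05). These 3 subunits thus had falls of unlike size, ORC5 and ORC3 near each other and ORC1 far less. ORC2 was lower too, from 34.1, 36.3 and 42.2 to 33.1, 31.8 and 32.1 CPM (-0.22), a value that was -0.14 without DMSO replicate 3. ORC6 (0.06) and ORC4 (-0.05) were not called. Within a library ORC1 was present at 2.54 times the level of ORC5 per kb or more in all shControl libraries, at 0.658, 0.810 and 0.796 times in shDDX5, at 2.91, 3.01 and 2.79 times in DMSO and at 4.01, 3.97 and 3.87 times in RX-5902 libraries. This pair, like the other ratios given here, was chosen after its values had been seen.

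All 3 licensing genes outside ORC fell in the knockdown, and they parted with the compound. CDC6, the loader that ORC recruits (chr17:40287879-40304657, plus strand), stood at 71.9, 72.3 and 73.0 CPM in shControl and at 21.2, 21.4 and 21.5 CPM in shDDX5 libraries (log2 fold change -1.76, SE 0.08, edgeR adjusted p = 3.63e-06). It also fell with RX-5902, from 91.3, 91.0 and 93.6 to 57.7, 54.7 and 54.7 CPM (log2 fold change -0.72, SE 0.04, edgeR adjusted p = 1.17e-15). In both experiments the treated libraries lay below the controls with little spread. CDT1, which brings MCM2-7 to the origin (chr16:88803789-88809258, plus strand), was lower in shDDX5 cells, at 32.6, 25.8 and 26.5 against 55.7, 58.5 and 58.0 CPM (log2 fold change -1.02, SE 0.11, edgeR adjusted p = 9.69e-05). With RX-5902 CDT1 rose from 74.6, 76.4 and 75.1 to 101, 113 and 119 CPM, the largest rise among the members, and all treated libraries lay above the controls (log2 fold change 0.56, SE 0.05, edgeR adjusted p = 6.73e-12). GMNN, which encodes geminin, the inhibitor of CDT1, fell by 1.24 on the log2 scale in the knockdown. With RX-5902 it went from 61.2, 62.7 and 66.4 to 53.2, 54.3 and 56.7 CPM (-0.21), treated libraries below the controls. CDT1 over GMNN per kb was 1.09, 1.09 and 1.01 in DMSO and 1.70, 1.86 and 1.88 in RX-5902 libraries, and 1.02, 1.18 and 1.09 in shControl and 1.27, 1.22 and 1.32 in shDDX5 libraries.

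**Figure D2:**
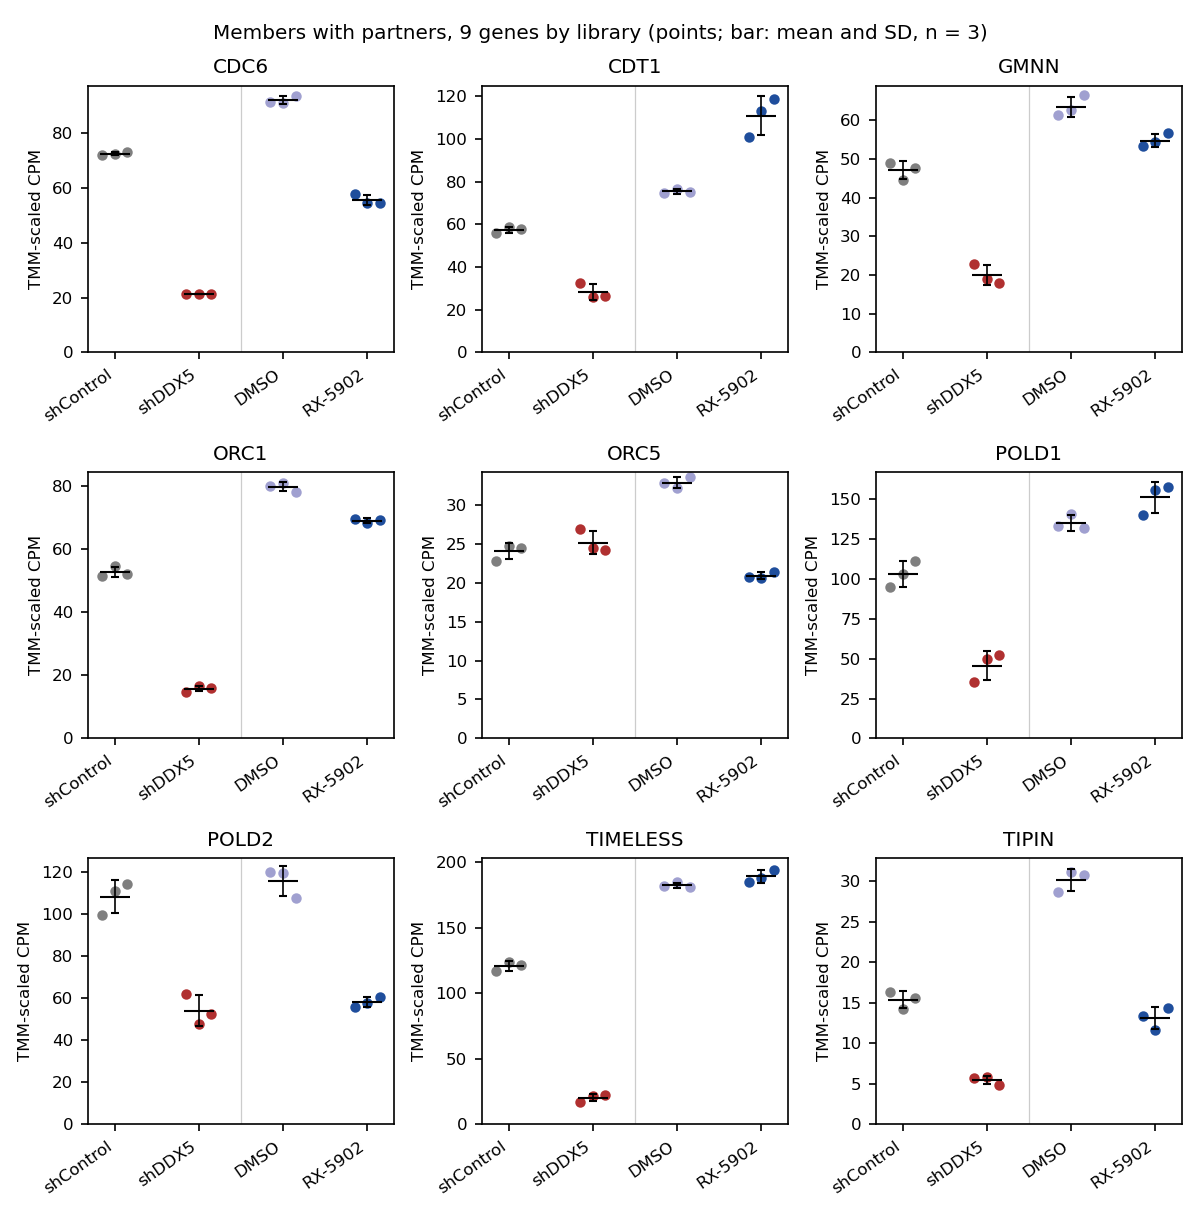
Level of 9 members in TMM-scaled CPM (vertical axes, from 0) in each library of the 4 groups, with the mean and SD of 3 libraries as bars. CDC6 is lower with both interventions, CDT1 is lower in shDDX5 and higher in RX-5902 cells, ORC5 was called lower with RX-5902 and not called in the knockdown, TIPIN and POLD2 are lower with both, and TIMELESS and POLD1 are lower in shDDX5 cells but not in RX-5902 cells.

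The 6 subunits of the MCM2-7 ring, the motor of the helicase, fell together and by similar amounts in the knockdown. Their log2 fold changes ran from -1.81 for MCM5 to -2.22 for MCM3, with a median of -2.10. MCM3 (chr6:52264014-52284881, minus strand) stood at 318, 321 and 321 CPM in shControl and 62.3, 72.7 and 70.5 CPM in shDDX5 libraries (log2 fold change -2.22, SE 0.09, edgeR adjusted p = 3.5e-06). MCM5 (chr22:35400134-35425431, plus strand) stood at 126, 134 and 132 and 34.7, 36.7 and 40.2 CPM (log2 fold change -1.81, SE 0.09, edgeR adjusted p = 4.14e-06). For both genes every shDDX5 library lay far below the lowest shControl library. Together the 6 genes took 1490 to 1550 CPM in shControl and 335 to 384 CPM in shDDX5 libraries, 4.15-fold less. The lowest sum was that of shDDX5 replicate 1. Without that library the median was -2.00 and all 6 were lower.

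RX-5902 lowered the same 6 genes by less and by unequal amounts. The largest change on the log2 scale was that of MCM2 (chr3:127598410-127622436, plus strand), from 224, 223 and 202 CPM in DMSO to 119, 126 and 125 CPM in RX-5902 libraries (log2 fold change -0.81, SE 0.04, edgeR adjusted p = 1.79e-17). MCM6 fell from 325, 318 and 312 to 212, 201 and 204 CPM (log2 fold change -0.63, SE 0.04, edgeR adjusted p = 7.55e-16). The level of MCM4 went from 572, 592 and 593 to 404, 408 and 396 CPM (-0.54). These 3 subunits, MCM2, MCM6 and MCM4, had the largest log2 changes of the ring. MCM5 went from 193, 192 and 182 to 136, 143 and 147 CPM (-0.41) and MCM3 from 532, 527 and 525 to 408, 402 and 399 CPM (-0.39). MCM7 changed least on the log2 scale, from 518, 519 and 492 to 438, 433 and 447 CPM (log2 fold change -0.21, SE 0.04, edgeR adjusted p = 7.5e-06). In all 6 genes the treated libraries lay below the controls. The summed level was 2306 to 2370 CPM in DMSO and 1713 to 1718 CPM in RX-5902 libraries, 1.37-fold less. Since MCM2 fell more than MCM3, the level of MCM3 over MCM2 per kb went from 3.08, 3.05 and 3.36 to 4.43, 4.12 and 4.13. MCM2 shares 23.6% of its exon length with a gene on the other strand, and MCM7 392 bases with AP4M1. Reads listed for these partners came to 0.277% and 2.11% of the members' own, which does not tell how shared reads were handled.

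**Figure D3:**
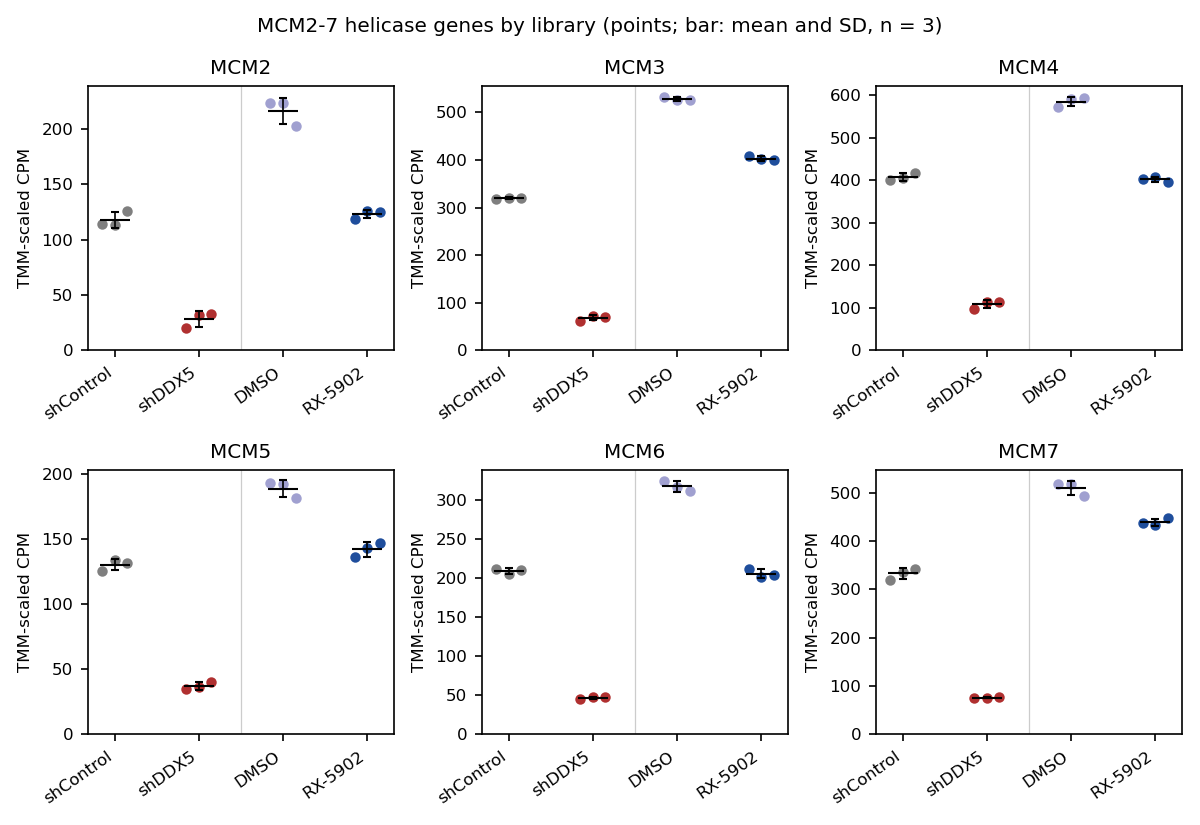
Level of MCM2 to MCM7 in TMM-scaled CPM (vertical axes, from 0) in each library of the 4 groups, with the mean and SD of 3 libraries as bars. In each panel the shDDX5 libraries lie far below shControl, and the RX-5902 libraries lie below DMSO by a smaller step, which relative to DMSO (log2 fold change) is largest for MCM2 at -0.81 and smallest for MCM7 at -0.21.

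Promoter windows of 4 MCM genes are printed because they hold E2F words and because these genes fell in both experiments, with that of ORC5 as a member that was not called in the knockdown. The sequences come from RefSeq (GRCh38.p14) and run from 250 bases before to 30 bases after a RefSeq start of the gene. MCM7 has 3 windows in the table, and the one shown was picked because it holds the most E2F words; the other two hold 0. Its start lies inside the gene as the deposited table bounds it (chr7:100092728-100101940, minus strand). Capitals mark matches to the words TTTCCCGC, TTTCGCGC, TTTGCCGC and TTTGGCGC on either strand, overlapping matches joined. The windows lie at chr3:127598161-127598440, plus strand (MCM2), chr6:52284713-52284992, minus strand (MCM3), chr2:135876414-135876693, minus strand (MCM6), chr7:100101368-100101647, minus strand (MCM7) and chr7:104207984-104208263, minus strand (ORC5).
MCM2: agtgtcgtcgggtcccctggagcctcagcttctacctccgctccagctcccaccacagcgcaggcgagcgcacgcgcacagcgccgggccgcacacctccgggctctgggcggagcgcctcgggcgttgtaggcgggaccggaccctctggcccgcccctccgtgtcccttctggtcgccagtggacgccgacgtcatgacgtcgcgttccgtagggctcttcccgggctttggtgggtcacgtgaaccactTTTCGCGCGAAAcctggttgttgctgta
MCM3: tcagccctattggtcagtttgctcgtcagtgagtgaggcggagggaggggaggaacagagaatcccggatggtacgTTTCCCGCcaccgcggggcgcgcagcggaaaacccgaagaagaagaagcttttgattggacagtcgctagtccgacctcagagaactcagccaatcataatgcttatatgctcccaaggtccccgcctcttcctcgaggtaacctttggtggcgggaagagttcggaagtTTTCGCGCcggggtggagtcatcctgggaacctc
MCM6: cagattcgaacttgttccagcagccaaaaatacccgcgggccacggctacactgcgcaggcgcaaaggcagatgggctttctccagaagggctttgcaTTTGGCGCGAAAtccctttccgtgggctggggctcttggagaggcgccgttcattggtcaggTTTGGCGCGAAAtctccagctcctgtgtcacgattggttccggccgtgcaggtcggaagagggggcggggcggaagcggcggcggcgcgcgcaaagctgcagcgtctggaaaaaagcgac
MCM7: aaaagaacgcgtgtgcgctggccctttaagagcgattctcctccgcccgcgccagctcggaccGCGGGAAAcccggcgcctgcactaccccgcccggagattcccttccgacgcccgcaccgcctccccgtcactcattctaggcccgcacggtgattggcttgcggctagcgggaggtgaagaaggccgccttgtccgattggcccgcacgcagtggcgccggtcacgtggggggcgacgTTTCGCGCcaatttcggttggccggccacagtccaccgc
ORC5: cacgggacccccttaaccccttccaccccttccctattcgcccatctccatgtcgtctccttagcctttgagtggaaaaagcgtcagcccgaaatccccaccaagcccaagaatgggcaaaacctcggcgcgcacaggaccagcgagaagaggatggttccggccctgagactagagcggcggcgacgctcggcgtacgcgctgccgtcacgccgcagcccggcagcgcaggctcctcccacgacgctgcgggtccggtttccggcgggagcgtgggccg
In MCM2 the match is 12 bases long, reads the same on both strands and begins at base 3 when the start base itself is counted. MCM3 has matches 174 and 4 bases before the start, MCM6 has matches 152 and 90 bases before it, and MCM7 has matches 187 and 9 bases before it. The ORC5 window has no match to these words.

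Over all members, 45 of 51 had a promoter window in the RefSeq table, and 21 of these 45 (46.7%) held an E2F word, in any of their windows, in the 300 bases from 250 before to 50 after a start. The same words were held by 3.99% of all 27305 genes in the table and by 6.70% of the 10047 tested genes with a window. All 21 members with the word were lower in the knockdown (median -1.79), as were 21 of the 24 members without it (median -1.46). With RX-5902, 15 of 21 with the word were lower and 3 higher (median -0.32), and 13 of 24 without it were lower and 2 higher (median -0.17). CDT1, CDC7 and LIG1, which rose with the compound, hold the word as well. The CCAAT box, searched as CCAAT on both strands, was found in 60.0% of members and 43.0% of the tested genes with a window. The CHR element, searched as TTTGAA and TTCGAA, was found in 6.67% of members and 15.5% of tested genes, and the GC box GGGCGG in 80.0% and 75.1%. A match is a string of letters and was not checked for binding.

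The partners that turn the loaded ring into the CMG helicase fell with it in the knockdown, all 6 of 6 (median -1.96). MCM10, which helps to activate the helicase (chr10:13161558-13211110, plus strand), changed most, from 65.1, 69.1 and 62.6 CPM in shControl to 13.7, 15.6 and 14.8 CPM in shDDX5 libraries (log2 fold change -2.16, SE 0.09, edgeR adjusted p = 3.63e-06). GINS4, one of the 4 GINS subunits, changed least, from 40.5, 41.8 and 43.1 to 18.4, 26.8 and 26.3 CPM (log2 fold change -0.81, SE 0.14, edgeR adjusted p = 0.00155). shDDX5 replicate 1 was the lowest library for GINS4, and all 3 lay below shControl. CDC45, a component of CMG, had a log2 fold change of -2.10, and GINS1, GINS2 and GINS3 had -1.40, -1.96 and -1.97.

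With RX-5902, 5 of these 6 genes were called lower and CDC45 was not called. Their log2 fold changes ran from -1.12 to -0.01, beside -2.16 to -0.81 in the knockdown. GINS2 (chr16:85676198-85690073, minus strand) fell from 31.0, 30.3 and 31.6 CPM in DMSO to 15.1, 13.5 and 14.1 CPM in RX-5902 libraries (log2 fold change -1.12, SE 0.07, edgeR adjusted p = 4.4e-16). CDC45 (chr22:19479457-19520612, plus strand) read 58.3, 61.5 and 56.2 and 56.0, 60.1 and 58.7 CPM, with overlapping groups (log2 fold change -0.01, SE 0.05, edgeR adjusted p = 0.882). CDC45 over GINS2 per kb was 2.03, 2.19 and 1.92 in DMSO and 4.01, 4.81 and 4.48 in RX-5902 libraries. The other 4 were called lower, each with all treated libraries below the controls. MCM10 went from 93.6, 95.4 and 96.8 to 67.6, 64.3 and 61.8 CPM (-0.56) and GINS3 from 40.6, 41.3 and 35.3 to 29.6, 27.5 and 26.7 CPM (-0.48). GINS1 went from 65.3, 66.1 and 67.0 to 50.6, 47.4 and 47.3 CPM (-0.45) and GINS4 from 48.2, 49.8 and 48.7 to 41.5, 45.0 and 44.0 CPM (-0.17). GINS2 and GINS3 are among the 5 members with fewer than 100 counts in some library (82 and 94 at the lowest).

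The kinase that fires origins has a catalytic subunit, CDC7, and an activator, DBF4, and their RNAs moved unequally. CDC7 (chr1:91500851-91525764, plus strand) stood at 33.5, 28.4 and 28.8 CPM in shControl and at 7.37, 9.21 and 8.24 CPM in shDDX5 libraries (log2 fold change -1.87, SE 0.12, edgeR adjusted p = 9.66e-06). DBF4 fell less, from 54.8, 55.9 and 52.5 to 37.6, 36.2 and 31.3 CPM (log2 fold change -0.64, SE 0.09, edgeR adjusted p = 0.00062). RX-5902 raised CDC7 from 36.1, 35.5 and 38.4 to 45.9, 44.6 and 40.4 CPM, with all treated libraries above the controls (log2 fold change 0.25, SE 0.06, edgeR adjusted p = 0.000293). DBF4 was at 46.5, 45.1 and 51.5 and 47.0, 44.3 and 42.1 CPM with overlap (log2 fold change -0.10, SE 0.06, edgeR adjusted p = 0.116), and was called lower without DMSO replicate 2 (-0.15, edgeR adjusted p = 0.0421) and without RX-5902 replicate 1 (-0.14, edgeR adjusted p = 0.0428). CDC7 over DBF4 per kb was 0.780, 0.648 and 0.701 in shControl, 0.251, 0.325 and 0.336 in shDDX5, 0.990, 1.00 and 0.952 in DMSO and 1.25, 1.28 and 1.22 in RX-5902 libraries.

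All 4 subunits of polymerase alpha-primase, which lays down the first RNA and DNA of each strand, fell in the knockdown. POLA1, its catalytic subunit (chrX:24693873-24996986, plus strand), fell from 52.9, 52.6 and 55.2 CPM in shControl to 10.4, 13.2 and 13.8 CPM in shDDX5 libraries (log2 fold change -2.10, SE 0.12, edgeR adjusted p = 5.76e-06). PRIM2, the large primase subunit (chr6:57314805-57646850, plus strand), fell least, from 36.1, 33.3 and 34.1 to 27.1, 23.5 and 23.7 CPM, still with no overlap (log2 fold change -0.48, SE 0.09, edgeR adjusted p = 0.00244). The log2 fold changes of PRIM1, the small primase subunit, and POLA2, the regulatory subunit, were -1.49 and -1.14. With RX-5902 POLA1 was lower, from 82.9, 83.5 and 85.5 to 76.7, 75.3 and 74.8 CPM (-0.15), as was POLA2, from 10.6, 10.9 and 9.41 to 8.29, 8.47 and 7.36 CPM (-0.35), and PRIM1 (-0.01) and PRIM2 (0.04) were not called. POLA2 was the member with the fewest counts, 45 in its lowest library, and shares 36.1% of its exon length with another gene on the same strand. PRIM1 shares 139 bases with NACA, a gene with many more reads, so the values of these 2 genes are less certain.

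The leading-strand and lagging-strand polymerases fell in the knockdown with all 5 of their members, and with the compound they ran from a fall of nearly 2-fold to a small rise. POLE, the catalytic subunit of polymerase epsilon (chr12:132623753-132687376, minus strand), stood at 146, 156 and 160.3 CPM in shControl and at 25.5, 38.4 and 43.9 CPM in shDDX5 libraries, replicate 1 lowest (log2 fold change -2.10, SE 0.18, edgeR adjusted p = 3.98e-05). POLD2, an accessory subunit of polymerase delta (chr7:44114631-44124358, minus strand), changed least of the 5, from 99.5, 111 and 114 to 62.1, 47.6 and 52.7 CPM (2.00-fold lower, SE of the log2 fold change 0.11, edgeR adjusted p = 0.000168). POLD1, the catalytic subunit of polymerase delta, POLD3 and POLE2 had log2 fold changes of -1.18, -1.75 and -1.78.

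With RX-5902 the 2 main subunits of polymerase delta went apart. POLD2 fell from 120.2, 119 and 108 CPM in DMSO to 55.9, 57.9 and 60.5 CPM in RX-5902 libraries (log2 fold change -0.99, SE 0.05, edgeR adjusted p = 1.51e-18). POLD1 (chr19:50384204-50418018, plus strand) was called higher, at 133, 141 and 132 against 140.0, 156 and 158 CPM, although its lowest treated library lay below the highest control (log2 fold change 0.16, SE 0.04, edgeR adjusted p = 0.00199). POLD1 over POLD2 per kb was 1.80, 1.91 and 1.99 in DMSO and 4.06, 4.37 and 4.23 in RX-5902 libraries, while in shDDX5 libraries it was 0.926, 1.69 and 1.60 and in shControl 1.55, 1.51 and 1.58. POLE was not called (log2 fold change 0.07, SE 0.04, edgeR adjusted p = 0.0921), though its 3 treated libraries, at 229, 232 and 237 CPM, lay above the controls at 223, 224 and 217 CPM. It was called higher with upper-quartile scaling (0.10, edgeR adjusted p = 0.0265) and with a filter at 5 CPM (0.10, edgeR adjusted p = 0.0161). In 1 fit of all 12 libraries the rise of POLD1 was not called (0.20, edgeR adjusted p = 0.152). POLE2, the second subunit of polymerase epsilon, was lower, from 19.0, 19.7 and 21.0 to 16.1, 15.8 and 15.9 CPM (-0.32). POLD3 was lower too, from 82.1, 77.6 and 80.0 to 71.8, 77.2 and 70.3 CPM (log2 fold change -0.13, SE 0.05, edgeR adjusted p = 0.0159), but not without DMSO replicate 1 (edgeR adjusted p = 0.0511) or without RX-5902 replicate 3 (edgeR adjusted p = 0.0976).

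The sliding clamp and its loader fell less than the helicase in the knockdown, with 5 of 6 members lower and a median of -1.05. RFC3 (chr13:33818069-33966558, plus strand), a small subunit of the loader RFC, changed most, from 102, 90.7 and 91.7 CPM in shControl to 28.6, 26.2 and 27.4 CPM in shDDX5 libraries (log2 fold change -1.79, SE 0.09, edgeR adjusted p = 4.15e-06). PCNA, the clamp that holds the polymerases on DNA (chr20:5114953-5126626, minus strand), was the most abundant member per length in every group and fell from 216, 209 and 207 to 145, 109 and 107 CPM (log2 fold change -0.81, SE 0.13, edgeR adjusted p = 0.00086). RFC2 (chr7:74231499-74254458, minus strand) was not called, at 41.5, 30.8 and 30.3 against 35.9, 39.4 and 37.8 CPM (log2 fold change -0.14, SE 0.13, edgeR adjusted p = 0.388): its shDDX5 replicate 1 read above all controls and the others below them. Without shDDX5 replicate 1 it was called lower, by -0.30 on the log2 scale (edgeR adjusted p = 0.000141). RFC5 and RFC4 fell by 1.58 and 0.91 on the log2 scale, and RFC1, the large subunit, was 2.29-fold lower.

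RX-5902 changed this group by small amounts in both directions. RFC3 was lower, from 93.6, 92.9 and 102 to 85.0, 80.6 and 77.8 CPM (-0.25), as were RFC5, from 68.7, 65.4 and 68.4 to 60.5, 58.6 and 56.5 CPM (-0.21), and RFC2, from 47.9, 49.1 and 51.2 to 41.4, 42.4 and 45.3 CPM (-0.20). The groups did not overlap for these 3 small subunits. RFC4 (chr3:186789880-186807058, minus strand) was higher, from 50.6, 53.6 and 54.6 to 59.0, 60.5 and 56.6 CPM (log2 fold change 0.15, SE 0.05, edgeR adjusted p = 0.00881), and lost the call without DMSO replicate 1 (edgeR adjusted p = 0.0916) or RX-5902 replicate 2 (edgeR adjusted p = 0.0652). PCNA stood at 273, 272 and 260.2 CPM in DMSO and 257, 257 and 254 CPM in RX-5902 libraries and was not called (log2 fold change -0.07, SE 0.04, edgeR adjusted p = 0.115), but was called lower without DMSO replicate 3 (-0.10, edgeR adjusted p = 0.0157). RFC1 was not called (0.06).

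RPA, the protein of 3 subunits that coats single-stranded DNA, had all of its genes called lower in both experiments. RPA1, the large subunit (chr17:1829702-1900082, plus strand), fell from 169, 166 and 174 CPM in shControl to 77.9, 77.5 and 79.2 CPM in shDDX5 libraries (log2 fold change -1.12, SE 0.07, edgeR adjusted p = 1.21e-05). RPA2 changed least, from 47.8, 45.6 and 44.0 to 31.5, 26.2 and 24.9 CPM (log2 fold change -0.74, SE 0.11, edgeR adjusted p = 0.00058), and RPA3 fell by 1.10 on the log2 scale. Treated and control libraries did not overlap for any RPA gene in either experiment. With RX-5902 RPA3 went from 26.0, 27.8 and 29.7 to 20.7, 20.4 and 20.3 CPM (-0.44), RPA1 from 228, 233 and 215 to 183, 177 and 182 CPM (-0.32) and RPA2 from 44.8, 47.8 and 46.4 to 39.9, 42.3 and 38.6 CPM (-0.20). The call of RPA2 was lost in 1 fit of all 12 libraries (-0.16, edgeR adjusted p = 0.142), and with a required fold of 1.2 neither RPA1 (edgeR adjusted p = 0.0678) nor RPA2 (edgeR adjusted p = 0.927) was called.

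FEN1 and LIG1, the flap endonuclease and the ligase that join Okazaki fragments, both fell in the knockdown. LIG1 (chr19:48115445-48170603, minus strand) stood at 68.9, 72.6 and 74.3 CPM in shControl and 18.7, 21.4 and 22.6 CPM in shDDX5 libraries (log2 fold change -1.78, SE 0.10, edgeR adjusted p = 5.48e-06). FEN1 (chr11:61792911-61797238, plus strand) stood at 88.7, 90.6 and 96.8 and 37.7, 27.3 and 29.5 CPM (log2 fold change -1.55, SE 0.13, edgeR adjusted p = 2.91e-05). The compound lowered FEN1 from 161, 162 and 153 to 128, 127 and 129.6 CPM (log2 fold change -0.31, SE 0.04, edgeR adjusted p = 3.59e-08) and raised LIG1 from 109.5, 109.9 and 101 to 115, 121 and 119 CPM (log2 fold change 0.15, SE 0.04, edgeR adjusted p = 0.00321). The rise of LIG1 lost its call without DMSO replicate 3, the lowest control (0.09, edgeR adjusted p = 0.0502).

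The largest knockdown changes of the 51 genes were those of TIMELESS and claspin, factors that stabilize the fork. TIMELESS, a scaffold that couples helicase and polymerase (chr12:56416363-56449426, minus strand), stood at 117, 124 and 121 CPM in shControl and 17.2, 22.0 and 22.2 CPM in shDDX5 libraries, 5.88-fold lower (log2 fold change -2.56, SE 0.11, edgeR adjusted p = 3.63e-06). Claspin (CLSPN), the mediator of checkpoint signalling at stalled forks (chr1:35720218-35769978, minus strand), came next, from 55.3, 53.5 and 54.7 to 7.71, 11.8 and 11.5 CPM (log2 fold change -2.40, SE 0.15, edgeR adjusted p = 1.01e-05). TIPIN, the obligate partner of TIMELESS (chr15:66336191-66386746, minus strand), changed least of the 4, from 16.3, 14.2 and 15.6 to 5.79, 5.82 and 4.90 CPM (log2 fold change -1.48, SE 0.12, edgeR adjusted p = 2.49e-05). WDHD1, also called AND-1, which ties polymerase alpha to the helicase, fell by 1.73 on the log2 scale. No knockdown library of these 4 genes reached the lowest control. For TIMELESS and CLSPN shDDX5 replicate 1 was the lowest, at -0.36 and -0.60 on the log2 scale against the mean of replicates 2 and 3. The rank of CLSPN rests in part on that library, since NASP, next with a change of -2.31, stood at 0.05 in it. Without that library the median log2 fold change of the 4 genes was -1.94, beside -2.00 for MCM2-7.

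With RX-5902 the order turned. TIPIN had the largest fall of all 51 genes, from 28.6, 31.2 and 30.7 CPM in DMSO to 13.3, 11.7 and 14.4 CPM in RX-5902 libraries (log2 fold change -1.20, SE 0.07, edgeR adjusted p = 7.28e-16), while TIMELESS at 182, 185 and 181 and 185, 188 and 194 CPM was not called (log2 fold change 0.05, SE 0.04, edgeR adjusted p = 0.24). TIMELESS over TIPIN per kb was 2.97, 2.77 and 2.75 in DMSO and 6.49, 7.53 and 6.32 in RX-5902 libraries, and 3.35, 4.08 and 3.64 in shControl and 1.40, 1.77 and 2.12 in shDDX5 libraries. CLSPN was at 102, 102 and 107 and 107, 102 and 102 CPM and was not called (log2 fold change -0.00, SE 0.04, edgeR adjusted p = 0.937), and WDHD1 fell from 62.2, 60.7 and 64.6 to 54.6, 50.4 and 51.2 CPM (-0.26). TIPIN has a pseudogene, RPL9P25, inside its exons on the same strand, which shares 21.1% of its exon length. The pseudogene was listed with 0 reads, which does not tell how reads shared by both were handled.

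The histone chaperones of the fork fell by more than 3-fold each in the knockdown. NASP, a carrier of histones H3 and H4 (chr1:45583846-45618904, plus strand), fell from 245, 227 and 225 CPM in shControl to 47.9, 47.3 and 45.2 CPM in shDDX5 libraries (log2 fold change -2.31, SE 0.08, edgeR adjusted p = 3.44e-06). CHAF1B, a subunit of chromatin assembly factor 1 (chr21:36385392-36419015, plus strand), fell from 29.0, 28.6 and 27.6 to 9.64, 8.87 and 9.23 CPM (log2 fold change -1.62, SE 0.08, edgeR adjusted p = 4.94e-06). ASF1B, which hands histones to that factor, and CHAF1A, its large subunit, fell by 1.80 and 1.74 on the log2 scale. With RX-5902 CHAF1B went from 34.2, 35.7 and 31.5 to 23.8, 24.4 and 23.6 CPM (-0.50) and NASP from 293, 306 and 312 to 242, 230.3 and 229 CPM (-0.38). CHAF1A was lower by a smaller step, from 138, 135 and 141 to 119, 127 and 127 CPM (-0.14), and ASF1B (-0.02) was not called. For the 3 called chaperones all treated libraries lay below the controls.

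The changes in the 2 experiments were then tested against each other in 1 edgeR fit of all 12 libraries. The interventions differ in kind, time and dose, so the test compares 2 contrasts and not 2 routes to the loss of DDX5 function. For 45 of 51 genes the knockdown change was lower than the compound change, for 1, ORC5, it was higher, and for ORC3, ORC4, POLD2, RFC2 and TIPIN no difference was called. Of 15386 genes tested, 52.7% were called, 28.6% lower and 24.1% higher. The difference was at least 2-fold for 34 of the 45, beside 13.6% of the genes tested. The median difference over the members was -1.38 on the log2 scale, beside -0.05 over all genes tested. The largest differences were those of TIMELESS (log2 difference -2.63, SE 0.11, edgeR adjusted p = 4.64e-10), CLSPN (log2 difference -2.41, SE 0.14, edgeR adjusted p = 8.33e-09) and POLE (log2 difference -2.19, SE 0.18, edgeR adjusted p = 2.07e-07). For TIMELESS, CLSPN and POLE shDDX5 replicate 1 was the lowest knockdown library. It stood at -0.36, -0.60 and -0.69 on the log2 scale against the mean of replicates 2 and 3. The rank of POLE rests in part on that library, since CDC45, with a log2 difference of -2.10, stood at 0.20 in it. The difference of ORC5 went the other way (log2 difference 0.70, SE 0.10, edgeR adjusted p = 4.36e-05). POLD2 had nearly the same change in both, 2.00-fold and 1.99-fold lower (log2 difference -0.02, SE 0.14, edgeR adjusted p = 0.905), as had ORC3, -0.60 and -0.56 (log2 difference -0.06, SE 0.12, edgeR adjusted p = 0.692). TIPIN missed the threshold (log2 difference -0.30, SE 0.14, edgeR adjusted p = 0.0914) and was called without shDDX5 replicate 1 (-0.34, edgeR adjusted p = 0.0415) or without RX-5902 replicate 2 (-0.37, edgeR adjusted p = 0.0475).

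By calls, 32 genes were lower in both experiments, 11 were lower in the knockdown and not called with the compound, and 5 were lower in the knockdown and higher with the compound. ORC5 and RFC2 were called lower with the compound and not called in the knockdown, and ORC4 was called in neither. Of all genes tested, 28.3% were lower in the knockdown, and 31.9% were lower and 32.2% higher with the compound. The share of all genes in each joint class was not computed, so these joint counts are only a description. For RFC2 no difference between the 2 changes was called (log2 difference 0.04, SE 0.15, edgeR adjusted p = 0.834). The change of a gene in the knockdown was hardly related to its change with the compound (Spearman rho 0.11, Pearson r 0.09 over the 51 genes, a description, since the genes share their libraries). Knockdown changes were also only weakly related to the level per kb in shControl (rho -0.25) and to exon length (rho -0.23).

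**Figure D4:**
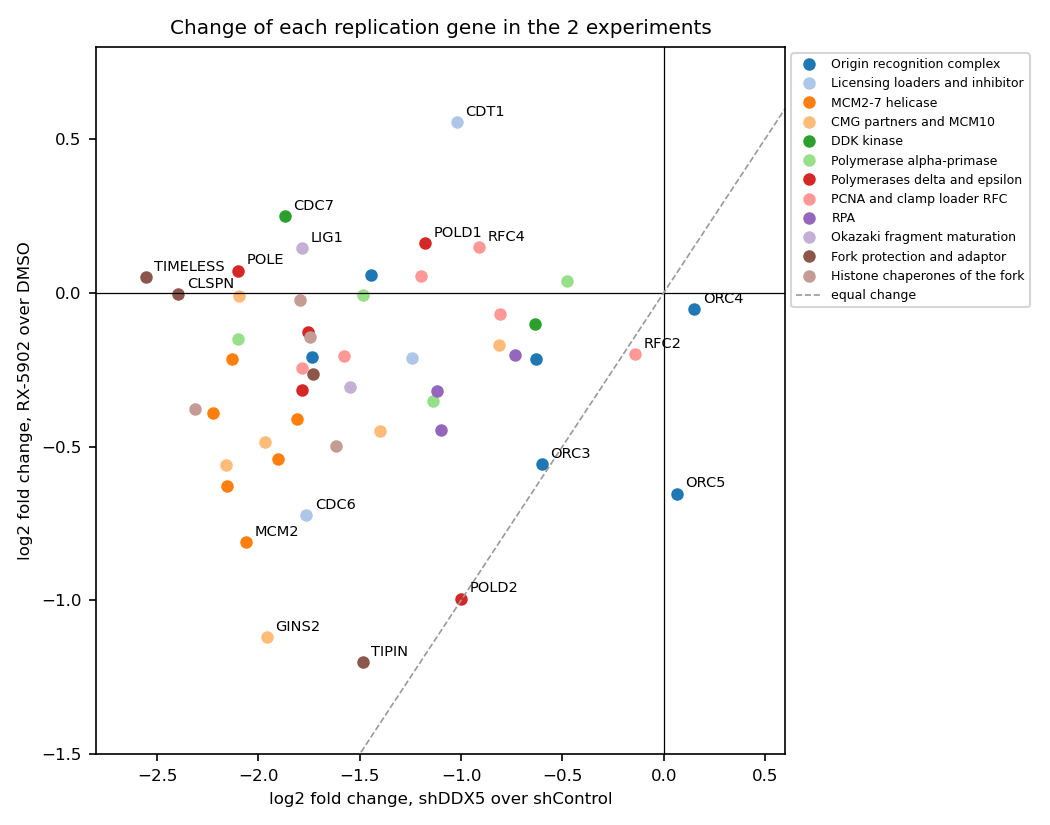
Log2 fold change of each of the 51 genes in shDDX5 over shControl (horizontal axis) and in RX-5902 over DMSO (vertical axis), coloured by subcomplex, with a dashed line where both are equal. Of the 51 points 48 lie above the line, ORC4, ORC5 and RFC2 lie below it, ORC5 furthest, and CDT1 stands highest at 0.56.

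Levels differed widely between members when set per kb of exon length in the deposited tables. In shControl cells PCNA was highest at 150.1 CPM per kb, followed by MCM3 at 87.7, MCM7 at 75.9 and MCM6 at 50.7. POLA2 at 1.21 and ORC4 at 1.97 CPM per kb were lowest. Within the MCM2-7 ring, which holds its subunits in equal number, RNA levels in shControl ran from 18.0 CPM per kb for MCM5 to 87.7 for MCM3. In shDDX5 cells the same 2 genes stood at 5.12 and 18.8 CPM per kb, and PCNA at 85.8. The table's exon length counts every annotated exon, which lowers the value of genes with long unused exons.

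Genes around the replication apparatus were read from 4 further lists. In the knockdown 35 of 43 tested other origin and fork factors were lower and 2 higher (median -1.23), beside 28.3% lower and 28.4% higher of all genes tested, among them the cohesin regulator CDCA5 (-1.93), UHRF1 (-2.15), which maintains DNA methylation behind the fork, and the FACT subunit SUPT16H (-1.91). Of 16 genes of nucleotide supply 13 were lower and 2 higher (median -0.91), with the ribonucleotide reductase subunits RRM1 (-2.28) and RRM2 (-2.17) and thymidylate synthase TYMS (-1.98). Of 25 E2F, pocket protein and S-phase cyclin genes 17 were lower and 3 higher (median -1.16), with MYBL2 (-2.38), CCNA2 (-1.70) and the E2F partner TFDP1 (-1.70). The 3 higher genes were the cell cycle inhibitor CDKN1A (log2 fold change 1.42, SE 0.11, edgeR adjusted p = 2.79e-05), E2F4 (0.37) and CDKN1B (0.31). The pocket protein genes RB1 (-0.78), RBL1 (-1.43) and RBL2 (-0.72) were among the lower ones. These higher genes and pocket protein genes were singled out after their values had been seen. All 25 mitosis genes were lower (median -2.02), for example the kinesins KIF2C (-2.18) and KIF23 (-2.28) and the cyclin CCNF (-2.18).

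With RX-5902 the mitosis genes went the other way from most replication members. Of the same 25 mitosis genes 24 were higher and 1 lower (median 0.52), beside 32.2% higher and 31.9% lower of all genes tested, and their summed level was 3219 to 3318 CPM in DMSO and 4400 to 4652 CPM in RX-5902 libraries. NDC80 (0.94) and CENPE (1.02), proteins of the kinetochore, and CCNF (0.70) were examples. The replication members had 34 lower and 5 higher in those libraries, as given above. Other origin and fork factors were 18 lower and 9 higher of 44 (median -0.08), with POLE3 (-0.83), an accessory subunit of polymerase epsilon, DTL (-0.78), the adaptor that marks CDT1 for destruction, and UHRF1 (-0.56). Genes of nucleotide supply were 10 lower and 2 higher of 16 (median -0.31), with PAICS (-0.96), CAD (-1.05) and GART (-0.84) of purine and pyrimidine synthesis. Of 24 tested E2F and cyclin genes 9 were lower and 9 higher (median 0.01), near the shares of all genes tested, with CDKN1A higher as in the knockdown (1.17, log2 difference 0.23, SE 0.13, edgeR adjusted p = 0.153) and CDC25A (-0.78) and E2F8 (-0.77) lower. POLD4, the small subunit of polymerase delta, stands in the list of other factors and rose in both experiments (0.99 and 0.98), unlike POLD1, POLD2 and POLD3. It was singled out after its values had been seen.

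**Figure D5:**
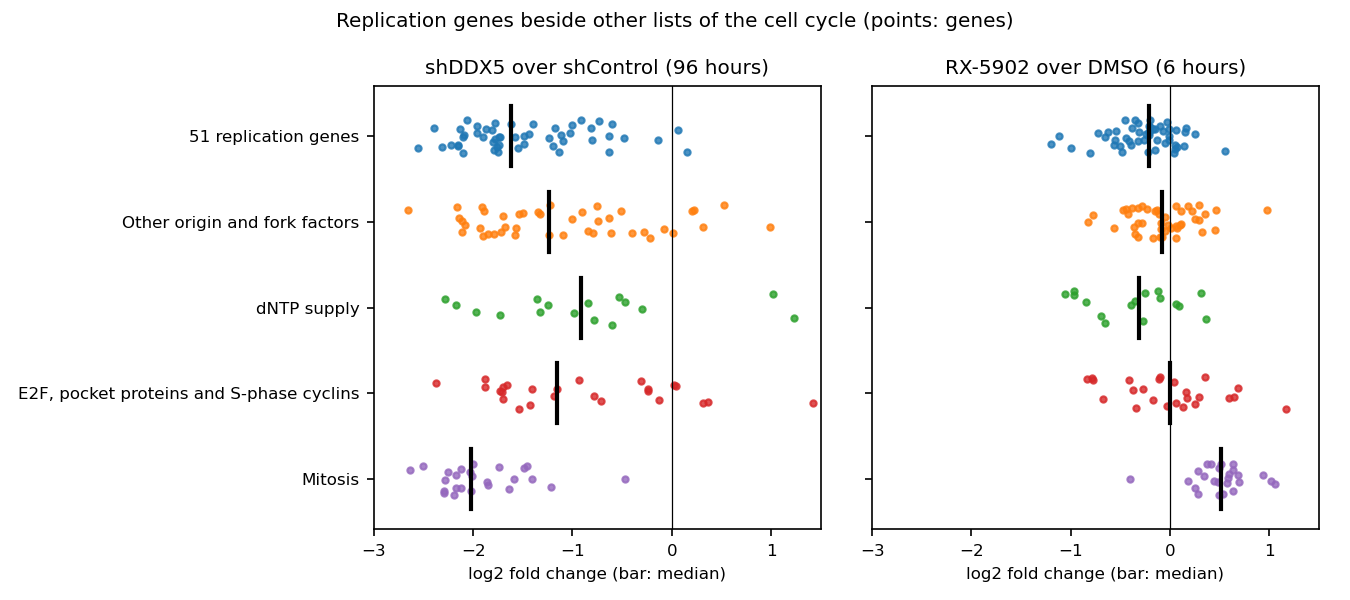
Log2 fold change of each gene (points, spread vertically to be visible) in 5 lists, for shDDX5 over shControl on the left and RX-5902 over DMSO on the right, with the median of each list as a bar. On the left all 5 medians are below 0, and on the right that of the mitosis genes is at 0.52 while that of the replication genes is at -0.21.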

How the data were processed

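RNA from MOLM-14 cells was sequenced in 12 libraries, 3 per group, and groups and replicate numbers came from the labels. The authors deposited read counts for each gene without normalization, in a separate table for either experiment. Per the submitters' processing notes the build was GRCh38.p13 and the tools named are STAR 2.7.9a, featureCounts (Subread 2.0.3), Picard 2.8.0, Trim Galore 0.6.7, DESeq2 1.46.0 and R 4.4.2. The sources used here do not give the strand setting or the handling of shared reads, so overlapping genes may have exchanged reads. The wrapped line of 1 gene was rejoined in either file. Exon length and coordinates are those of the tables, on GRCh38, counted from 1.

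The 2 experiments were fitted separately in edgeR 4.0.16 (R 4.3.3) with its expression filter (minimum count 10), TMM scaling and the two-sided quasi-likelihood F test. A call required p under 0.05 after Benjamini-Hochberg adjustment across every tested gene. Standard errors (SE) came from the F statistic. A contrast over all 12 libraries tested the difference between the 2 changes. The script was tested on simulated data. Levels in CPM were scaled within each experiment and are not on 1 scale across the tables. Intervals and SEs rest on 3 libraries per group.

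The rule for the members uses gene symbols and no measured value, but members, lists and tests were chosen with earlier results of these data known. By the rule for named genes, values by library were given for the member with the largest and the smallest knockdown change of each subcomplex, the members not called lower in the knockdown, members called with RX-5902 and those with the largest difference. Up to 3 called genes with the smallest p were named per other list. Alternatives were DESeq2 1.42.0, other scalings and filters, the replicate number as a block, 1 fit of all 12 libraries, a test against a fold of 1.2 and leaving out each library. Promoter windows came from RefSeq and 9 members had more than 1 window.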

Additional observations from a re-analysis of the deposited data

Results flagged for a closer look

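The replication genes that moved in opposite directions in the 2 experiments, or were called higher by the test of the difference, were singled out by the edgeR test of the difference over all 12 libraries. The 2 contrasts differ in intervention, dose and time, which cannot be told apart here. CDT1 fell by 1.02 in shDDX5 cells and rose by 0.56 with RX-5902 on the log2 scale, a difference of -1.59. CDC7 fell by 1.87 and rose by 0.25, a difference of -2.14. For LIG1 the changes were -1.78 and 0.15 (difference -1.95), for POLD1 -1.18 and 0.16 (difference -1.36), and for RFC4 -0.91 and 0.15 (difference -1.08). ORC5 was not called in the knockdown (0.07) and fell by 0.65 with the compound, a difference of 0.70. CDT1 was the only one of these 5 rises that passed the test against a fold of 1.2, that of POLD1 was not called in 1 fit of all 12 libraries (0.20, edgeR adjusted p = 0.152), and those of RFC4 and LIG1 lost their call without 1 of the libraries named beside them above.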

How the results depend on the processing

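In the knockdown 48 members were lower and 0 higher with every alternative that kept all libraries, and 48 to 49 were lower when each library was left out in turn. RFC2 accounts for the added call, and shDDX5 replicate 1 is the library left out there. Over all genes 3405 to 5326 were lower and 3271 to 5319 higher in the knockdown when a library was left out. The difference between the changes was called lower for 45 to 46 members and higher for 1. When a library was left out, it was called lower for 3947 to 5048 and higher for 3493 to 4489 of all genes. With RX-5902 the members numbered 33 to 35 lower and 4 to 5 higher when a library was left out. Over all genes 4205 to 4432 were lower and 4103 to 4371 higher there. Tested against a fold of 1.2, 17 were lower and 1 higher, and over all genes 2617 were lower and 2573 higher, since that test asks for more than a change from 0. In 1 fit of all 12 libraries 25 members were lower and 4 higher, and over all genes 3049 were lower and 3767 higher. Of 714 member values in each experiment's alternatives, 713 kept direction and call in the knockdown, and 673 with RX-5902, where 36 lost and 5 gained a call. Of these 36, 21 came from the test against a fold and 10 from the fit of all libraries. None changed direction among called genes. The labels give no pairing by replicate number, and a check on deviations from the mean of 3 libraries cannot exclude one. Same-numbered libraries had correlations of -0.10 to 0.05 in these deviations in the knockdown and -0.08 to 0.02 with RX-5902. With the replicate number as a block 48 members were lower and 0 higher in the knockdown, 34 lower and 5 higher with RX-5902, and 45 lower and 1 higher in the difference. The block called 7592 genes in the knockdown, 8696 with RX-5902 and 7626 in the difference. Members had 45 to 11841 counts per library, and POLA2, POLE2, GINS2, GINS3 and TIPIN were under 100 in some library. GINS2 and POLA2 had the largest knockdown SEs of the members, 0.19 each. Those of TIPIN (0.12) and GINS3 (0.14) were smaller than those of RPA3, POLE and MCM2, 0.18 each.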
